A study of Mus musculus with 15 samples.

Results

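The Sox transcription factors Sox4, Sox5, Sox6, Sox9, Sox11 and Sox12 were followed in dental mesenchyme and in mouse dental mesenchymal cells (mDMCs) kept in culture. The members were taken as the rows of the expression table whose Ensembl transcript maps to these genes, whatever their values. The genes themselves were listed with earlier results of these data known. Of 12089 transcripts in the table, 11973 matched 11960 genes, and 5 of the 6 listed Sox genes had 1 row each. No row matched Sox5, which was not analysed here. The question behind the series is how gene expression in mDMCs changes once the cells leave the tooth germ.

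All 15 RNA-seq libraries came from ICR mouse embryos at E14.5, and the labels name no genetic change or drug in any group. The mDMCs were mesenchyme of the mandibular first molar, freed from epithelium with dispase and dissociated with trypsin. They were taken fresh (0 h, 3 libraries) or after culture in DMEM with fetal bovine serum for 12 h (2 libraries), 24 h, 36 h and 48 h (3 libraries each). A single library of dental mesenchymal tissue had no replicate. How many embryos went into a library, and whether the replicates were separate cultures, is not given in the sources used here, so p-values measure the spread between these libraries, which may be technical.

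Sox proteins share a DNA-binding domain, the HMG box, which binds the minor groove of DNA and bends it. They are grouped by the sequence of this box and by the domains around it. Sox4, Sox11 and Sox12 form the SOXC group, transcriptional activators of embryonic progenitor cells that are known for their roles in the survival and growth of mesenchyme and neural tissue. Sox9, of the SOXE group, acts in the neural crest, from which dental mesenchyme derives, and is the master factor of cartilage. Sox5 and Sox6, of the SOXD group, have no activation domain of their own and bind beside SOX9 on cartilage enhancers.

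The start of the conserved HMG-box signature is printed for the 5 measured genes because it belongs to the domain that defines the family and shows how closely the members resemble each other there. Each line holds 90 coding bases, 5′ to 3′ on the strand of the gene, read from the genome (GRCm38, the build called mm10), and capitals mark the bases that are the same in all 5 genes.
Sox4: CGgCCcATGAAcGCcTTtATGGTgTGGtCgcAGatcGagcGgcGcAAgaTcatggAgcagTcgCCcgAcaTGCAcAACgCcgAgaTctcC
Sox11: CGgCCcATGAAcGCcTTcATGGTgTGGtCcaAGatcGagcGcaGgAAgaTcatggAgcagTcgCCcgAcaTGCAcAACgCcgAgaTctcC
Sox12: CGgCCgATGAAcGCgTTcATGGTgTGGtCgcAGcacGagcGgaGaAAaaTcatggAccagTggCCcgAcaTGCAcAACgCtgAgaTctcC
Sox9: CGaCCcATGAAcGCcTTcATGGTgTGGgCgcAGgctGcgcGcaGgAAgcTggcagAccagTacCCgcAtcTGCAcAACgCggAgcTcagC
Sox6: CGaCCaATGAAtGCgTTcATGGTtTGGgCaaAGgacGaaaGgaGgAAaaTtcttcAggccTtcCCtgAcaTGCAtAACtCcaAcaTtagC
These stretches lie at chr13:28952752-28952841 on the minus strand for Sox4, chr12:27342169-27342258 on the minus strand for Sox11, chr2:152397486-152397575 on the minus strand for Sox12, chr11:112782903-112782992 on the plus strand (exon 1) for Sox9, and chr7:115489673-115489762 on the minus strand (exon 14) for Sox6.

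Of the 90 bases, 46 were the same in all 5 genes and 76 in the 3 SOXC genes. Sox4 and Sox11 shared 84 bases, whereas Sox9 and Sox6 shared 55. Over the whole transcripts, the longest exact run shared by any pair was 48 bases, between Sox4 and Sox11, followed by 33 bases between Sox4 and Sox12. No 50-base stretch of any of the 5 transcripts (0%) occurred in a transcript of another annotated gene, while shorter reads, whose length is not given in the sources used here, could be shared between Sox4, Sox11 and Sox12.

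The 3 SOXC genes have 1 exon each in the listed transcripts. Sox4 (ENSMUST00000067230) spans chr13:28948919-28953713, Sox11 (ENSMUST00000079063) chr12:27334264-27342574 and Sox12 (ENSMUST00000182625) chr2:152393611-152398063, all on the minus strand, with transcript lengths of 4795, 8311 and 4453 bases. The Sox9 transcript (ENSMUST00000000579) has 3 exons at chr11:112782224-112787760 on the plus strand and is 4135 bases long. The Sox6 transcript (ENSMUST00000166877) has 16 exons at chr7:115471344-116038744 on the minus strand and is 8079 bases long. It is 1 of 16 annotated Sox6 transcripts, and the others had no matched row, so its score may not stand for the whole gene. Likewise, the Sox12 row is 1 of 2 annotated transcripts.

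The values are expression scores on a normalised scale, whole numbers that are neither read counts nor their share of a library. All 15 libraries have a median of 721 and totals between 21357605 and 21365980, so the depth is unknown, and a rise or fall of all RNA together would not show. The 0 h libraries 1 and 2 and the 12 h library 2 leaned to short transcripts, and the 0 h library 3 and the 12 h library 1 to long ones (Spearman correlation of a library's deviation within its time point with transcript length -0.18, -0.21, -0.39, 0.28 and 0.39 over 11973 transcripts, against -0.12 to 0.13 in the other 9 mDMC libraries). The 48 h library 1 was closest to the 36 h library 1 (Pearson r = 0.984 across transcripts), while each other mDMC library was closest to one of its own time point. No pair of libraries was identical.

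All 10 listed markers of dental mesenchyme had a row and a score above 0 at every time point, among them Pax9 and Lhx6. The same held for every listed epithelial, glial, neuronal and macrophage gene with a row, so this does not tell the cell types apart. Epithelial markers were uneven at 0 h: the keratin Krt14 scored 5832 in library 1 and 645 and 838 in libraries 2 and 3. The summed scores of red cell and of endothelial markers were higher in tissue and at 0 h than in culture, with values given beside the results.

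All 5 measured Sox genes were lower at 36 h and 48 h than at 0 h, at different times and by different amounts. From 0 h to 48 h Sox12 had the largest fitted fall (6.12-fold lower), followed by Sox6 (3.23-fold), Sox9 (2.25-fold), Sox11 (2.09-fold) and Sox4 (1.31-fold). The place of Sox9 above Sox11 rested on the 0 h library 3. Without it the log2 change of Sox9 was -0.69, and that of Sox11 lay between -1.24 and -0.92 under every alternative. With all 14 libraries and no replicate block, no member was called higher in any comparison of time points. Sox6 was called higher at 36 h than at 24 h with the block (0.77 on the log2 scale, adjusted p = 0.0329 in limma) or without either the 24 h library 1 or the 36 h library 3. The call of Sox9 at 48 h rested on single libraries. Because the RNA came from bulk samples, fewer cells of a type and less RNA per cell cannot be told apart.

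**Figure D1:**
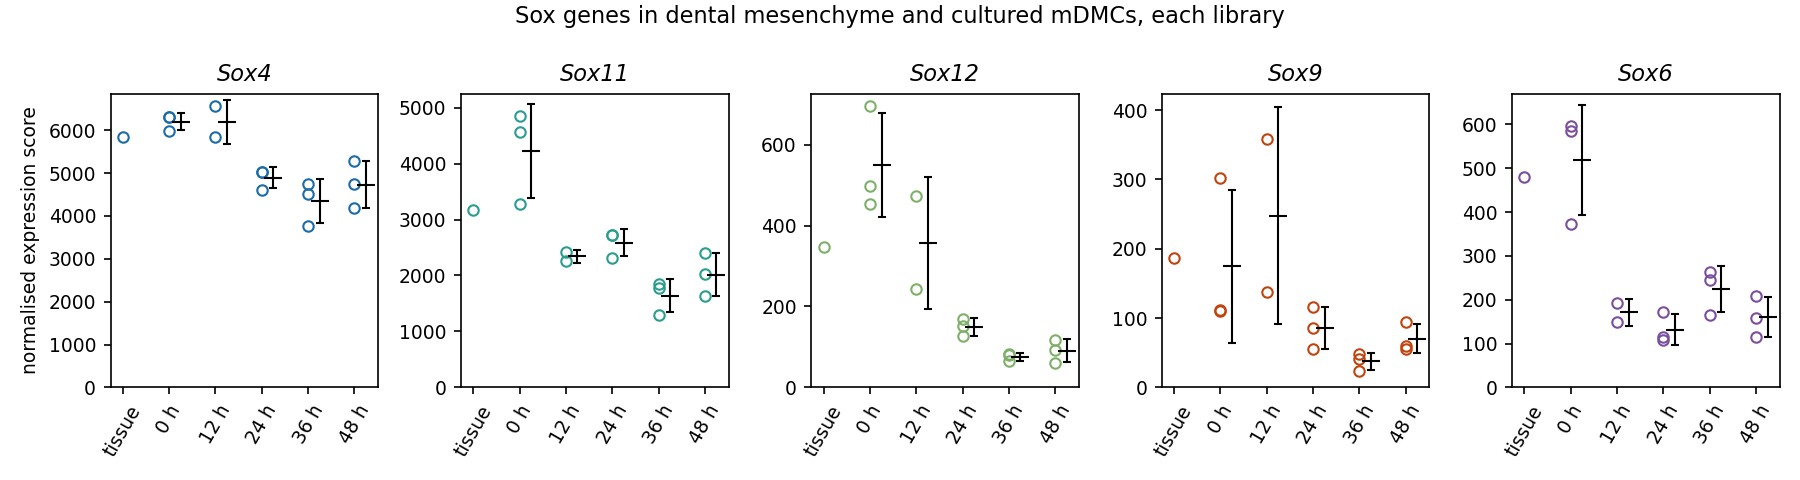
Each panel plots 1 Sox gene, with the normalised expression score (linear, from 0) against the tissue and the hours in culture. Circles are libraries and bars are the mean ± SD of 2 or 3 libraries. All 5 genes lie lower at 36 h and 48 h than at 0 h, with no overlap, and the 12 h libraries of Sox9 and Sox12 lie far apart.

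Per kilobase of transcript, the scale on which levels of different genes are compared here, the SOXC genes led in freshly isolated cells. Whether the scores had already been divided by length is not known. Length and mean score had a Spearman correlation of 0.11 over 11973 transcripts. Undivided, the 0 h means were 6198.3, 4226.3, 549, 517.7 and 174.7 for Sox4, Sox11, Sox12, Sox6 and Sox9. On that scale the 0 h libraries of Sox12 and Sox6 overlapped. The mean score per kilobase at 0 h was 1293 for Sox4, 508.5 for Sox11, 123.3 for Sox12, 64.1 for Sox6 and 42.2 for Sox9. At 48 h the means were 987.4, 242.5, 20.3, 19.9 and 17.0 for the same genes in turn. Sox4 and Sox11 led at both times, while the 48 h libraries of Sox12, Sox6 and Sox9 overlapped and give no order among these 3 genes. Within a library, the score of Sox4 lay at the 95.7th percentile of all transcripts at 0 h on average and at the 93.5th at 48 h, and that of Sox12 at the 42.1st and the 9.52nd.

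Sox4, an activator needed in many embryonic progenitor cells, was among the highest transcripts throughout. It scored 5973, 6311 and 6311 (0 h), 6561 and 5832 (12 h), 5032, 4610 and 5032 (24 h), 4753, 4515 and 3772 (36 h), and 4753, 4179 and 5272 (48 h). The 0 h and 12 h libraries overlapped, and all libraries from 24 h on lay below them. The mean was 6198.3 ± 195.1 (SD, n = 3) in fresh cells, the 12 h mean was 6196.5 ± 515.5 (SD, n = 2), and the log2 change between them was -0.00 (SE 0.12, 95% interval -0.25 to 0.25). Sox4 then fell below its 0 h level, with log2 changes of -0.34 after 24 h (SE 0.10, adjusted p = 0.0106 in limma with Benjamini-Hochberg adjustment), -0.52 after 36 h (adjusted p = 0.00062) and -0.39 after 48 h (SE 0.10, 95% interval -0.62 to -0.17, adjusted p = 0.00416). These changes were small beside those of the other members, and no step between neighbouring time points was called for Sox4.

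Sox11, the closest relative of Sox4 and likewise known for roles in neural and mesenchymal progenitors, fell within 12 h. Its scores were 4847, 3272 and 4560 (0 h), 2426 and 2261 (12 h), 2306, 2731 and 2715 (24 h), 1774, 1839 and 1295 (36 h), and 1627, 2397 and 2022 (48 h). Every cultured library lay below the lowest 0 h library. The fall from 0 h was 0.83 on the log2 scale at 12 h (SE 0.20, adjusted p = 0.00306 in limma), and the 12 h and 24 h libraries overlapped (log2 change 0.14, adjusted p = 0.703). Between 24 h and 36 h Sox11 fell by 0.67 (SE 0.18, adjusted p = 0.0206 in limma), a call that was lost without the 24 h library 2 or 3 or the 36 h library 3 (adjusted p = 0.0699, 0.0731 and 0.0769). Relative to 0 h, its log2 change at 48 h was -1.07 (SE 0.18, 95% interval -1.45 to -0.68, adjusted p = 0.00014 in limma), and this held under every alternative tried, with changes of -1.24 to -0.92.

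Sox12, the third SOXC gene and in general the weakest activator of the group, had the largest fitted fall of the 5 genes. It scored 499, 453 and 695 (0 h), 472 and 242 (12 h), 152, 126 and 169 (24 h), 82, 79 and 64 (36 h), and 61, 93 and 117 (48 h). The 12 h libraries lay apart, 1 within the range of 0 h and 1 below it, and all later libraries lay below both times. The log2 change at 12 h was -0.67 (SE 0.31, 95% interval -1.35 to 0.00, adjusted p = 0.0803 in limma) and became a call without the 12 h library 1 (-1.15, adjusted p = 0.0148). Relative to 0 h, the later falls had log2 changes of -1.86 after 24 h (SE 0.28, adjusted p = 6.3e-05 in limma), -2.84 after 36 h (adjusted p = 1.3e-06) and -2.61 after 48 h (SE 0.28, 95% interval -3.22 to -2.01, adjusted p = 2.5e-06). Under every alternative the change at 48 h was called, between -2.82 and -2.36.

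Sox12 was also the member with calls at 2 successive steps. It fell by 1.19 on the log2 scale between 12 h and 24 h (SE 0.31, adjusted p = 0.0347 in limma) and by 0.98 between 24 h and 36 h (SE 0.28, adjusted p = 0.028). Both calls depended on single libraries. The first was lost without the 12 h library 1 (-0.71, adjusted p = 0.374), without the 24 h library 1 or 2 (adjusted p = 0.0582 and 0.131) or in a fit of only the 2 time points (adjusted p = 0.117), and the second without any one of the 24 h libraries 1 and 3 or the 36 h libraries 1, 2 and 3 (adjusted p 0.0549 to 0.101). The libraries of 24 h and 48 h did not overlap for Sox12, but the change of -0.75 (SE 0.28) was not called (adjusted p = 0.067 in limma). Without the 48 h library 3 it was -0.96 and called (adjusted p = 0.0387).

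**Figure D2:**
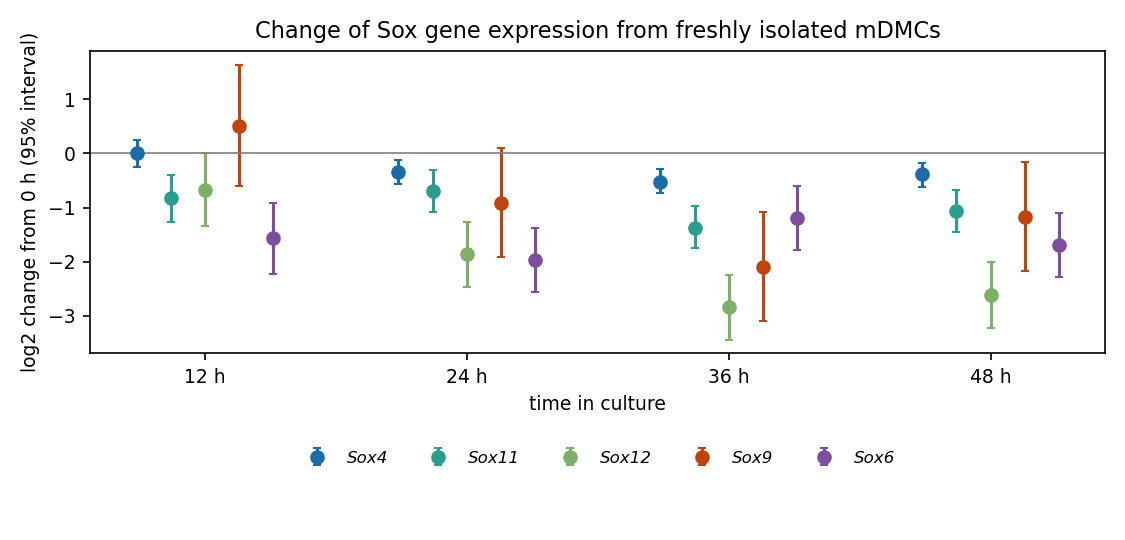
The log2 change of each Sox gene from 0 h (vertical axis) is plotted for 12 h, 24 h, 36 h and 48 h, with points for the limma estimate and bars for its 95% interval. All 4 time points share the same 0 h libraries. At 48 h the estimates run from -2.61 for Sox12 to -0.39 for Sox4, and the interval of Sox9 is the widest of the 5 genes at each time.

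Since the SOXC genes fell unequally, their proportions shifted. As shares of their summed score per kilobase, Sox4, Sox11 and Sox12 made up 67.3% ± 4.6, 26.3% ± 4.2 and 6.37% ± 1.2 at 0 h, and 78.9% ± 4.5, 19.5% ± 4.3 and 1.61% ± 0.41 at 48 h (SD, n = 3). Per library, the Sox12 share was 5.77%, 5.62% and 7.72% in fresh cells against 1.14%, 1.77% and 1.92% after 48 h, with no overlap. The Sox4 share was 64.2%, 72.7% and 65.1% against 82.6%, 73.8% and 80.3%, which also did not overlap, although the 0 h library 2 and the 48 h library 2 lay close together. The ratio of Sox4 to Sox11 was 2.14, 3.34 and 2.40 in fresh cells, rather than 5.06, 3.02 and 4.52 after 48 h, and these ranges overlapped. Shares of a sum are tied to each other, and no test was run on them. Their sizes and that of the ratio depend on the division by length, which these scores may not need.

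**Figure D3:**
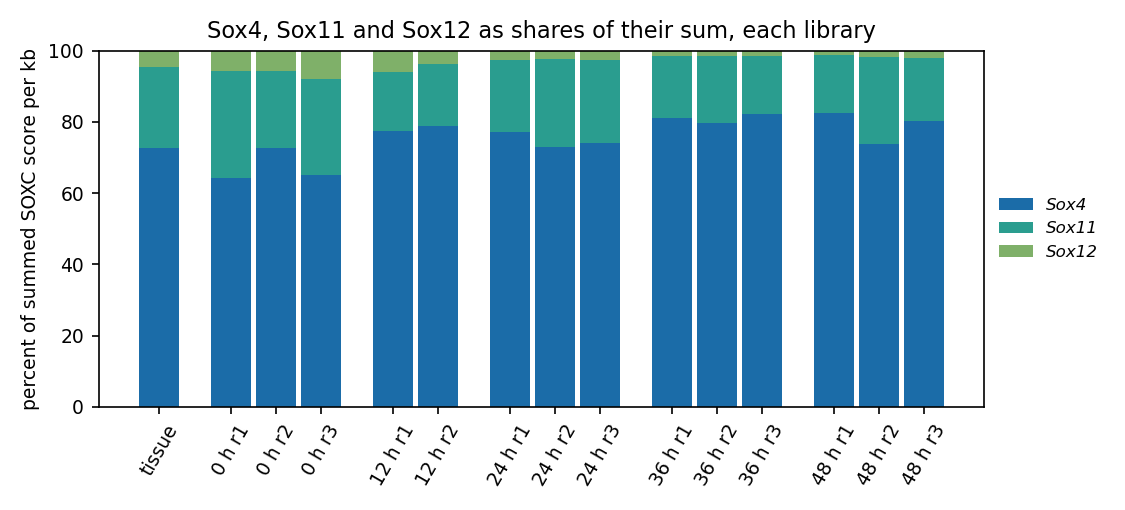
Stacked bars give Sox4, Sox11 and Sox12 as percent of their summed score per kilobase, 1 bar per library, from tissue to 48 h. The Sox12 part narrows from 6.37% on average at 0 h to 1.61% at 48 h.

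Sox9 was low in these cells and spread widely. Its scores were 110, 112 and 302 (0 h), 359 and 137 (12 h), 85, 56 and 116 (24 h), 41, 48 and 23 (36 h), and 56, 60 and 95 (48 h). The 0 h libraries overlapped those of 12 h and of 24 h, both 12 h libraries lay above all of 24 h, and all libraries of 36 h and 48 h lay below those of 0 h. Neither the log2 change of 0.51 at 12 h (SE 0.52, adjusted p = 0.422 in limma) nor that of -0.91 at 24 h (SE 0.47, adjusted p = 0.101) was called. The sign at 12 h turned without the 12 h library 1 (-0.18), and the change from 12 h to 24 h, -1.42 and not called (adjusted p = 0.112), became a call without the 12 h library 2 (-2.12, adjusted p = 0.0482). Sox9 fell by 2.09 from 0 h to 36 h (SE 0.47, 95% interval -3.10 to -1.08, adjusted p = 0.00139 in limma), which held under every alternative (-2.33 to -1.61). At 48 h the fall was 1.17 (SE 0.47, 95% interval -2.18 to -0.16, adjusted p = 0.038 in limma). That call was lost without the 0 h library 3 (-0.69, adjusted p = 0.183), the 48 h library 1 (-1.03, adjusted p = 0.107) or the 48 h library 2 (-1.08, adjusted p = 0.0962).

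The 2 libraries with the highest Sox9 scores both leaned to long transcripts. Within its time point Sox9 deviated by 0.96 (log2) in the 0 h library 3 and by 0.69 in the 12 h library 1, and Sox12 by 0.36 and 0.48. In the libraries that leaned to short transcripts, the 0 h libraries 1 and 2 and the 12 h library 2, Sox9 deviated by -0.49, -0.47 and -0.69. Sox9 was also high within its time point in the 24 h library 3 (0.49), the 48 h library 3 (0.47) and the 36 h library 2 (0.42). The length trends of these were 0.02, -0.08 and -0.02. The Sox9 transcript is longer than 71.6% of the matched transcripts, that of Sox11 than 96.3% and that of Sox6 than 95.8%. In the 0 h library 3 and the 12 h library 1, Sox11 deviated by 0.13 and 0.05 and Sox6 by 0.23 and 0.19. With 2 libraries at 12 h, the deviations of 1 mirror those of the other. Without the 0 h library 3 and the 12 h library 1 together, the 48 h change of Sox9 was -0.69 (adjusted p = 0.123 in limma) and that of Sox12 at 12 h was -0.97 (adjusted p = 0.0337). The part of this trend in the Sox9 values was not tested further.

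**Figure D4:**
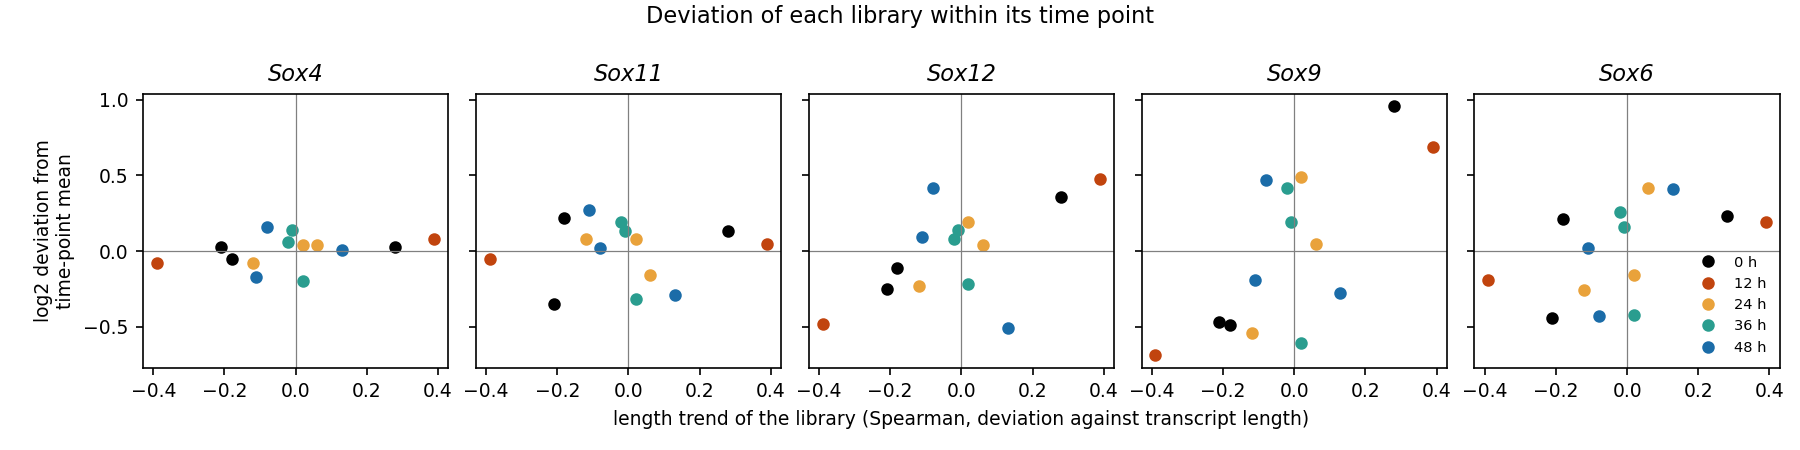
For each Sox gene, the log2 deviation of a library from its time-point mean (vertical axis) is set against the library's length trend (Spearman correlation of deviation with transcript length, horizontal axis), 1 point per mDMC library, coloured by time. The 0 h library 3 and the 12 h library 1 lie at the right, with Sox9 deviations of 0.96 and 0.69.

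Sox6, the SOXD member with a row, lost most of its score within 12 h and then stayed low. Its scores were 584, 373 and 596 (0 h), 193 and 149 (12 h), 173, 107 and 115 (24 h), 245, 264 and 164 (36 h), and 208, 158 and 116 (48 h). Every cultured library lay below the lowest 0 h library, and the libraries of every cultured time point overlapped those of every other one. All 4 falls from 0 h were called, with log2 changes of -1.57 after 12 h (SE 0.31, adjusted p = 0.00073 in limma), -1.97 after 24 h (SE 0.27, adjusted p = 3.4e-05) and -1.69 after 48 h (SE 0.27, 95% interval -2.28 to -1.10, adjusted p = 0.00011). At 36 h it was 2.3-fold lower than at 0 h (adjusted p = 0.00161 in limma). The 48 h change lay between -1.91 and -1.48 under the alternatives and was called in each. From 24 h to 36 h the log2 change of Sox6 was 0.77 (SE 0.27, 95% interval 0.18 to 1.36, adjusted p = 0.0656 in limma). It became a call without the 24 h library 1 (0.98, adjusted p = 0.0322) or the 36 h library 3 (0.98, adjusted p = 0.0437). With the replicate number as a block, fitted over all 14 mDMC libraries and not only these 2 times, the same change of 0.77 was called (adjusted p = 0.0329 in limma).

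Counted together, 2 of the 5 members were called lower at 12 h than at 0 h (28.3% of the 12079 tested transcripts were), 4 at 24 h (31.8%), 5 at 36 h (34%) and 5 at 48 h (34%). None was called higher, against 29.9%, 35%, 36% and 37.1% of all transcripts, and at an unadjusted p-value below 0.05 limma gave 0 higher members as well. All 4 comparisons share the 0 h libraries and are not independent. The median log2 change of the members was -0.67, -0.91, -1.37 and -1.17 at 12 h, 24 h, 36 h and 48 h, beside 0.02, 0.03, 0.02 and 0.03 over all transcripts tested.

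Between successive time points, few members passed the test. From 12 h to 24 h 1 of 5 was called lower (3.67% of all transcripts) and 0 higher (4.59%), and 3 were lower at an unadjusted p-value below 0.05. Over the step to 36 h, 2 were called lower (9.64%) and 0 higher (10%), which became 1 higher, Sox6, with the replicate block, and at an unadjusted p-value below 0.05 3 members were lower and 1, Sox6, higher. From 36 h to 48 h limma called 0 members in either direction (0% of all transcripts higher and 0.0248% lower), also at an unadjusted p-value below 0.05. From 24 h to 48 h 0 were called as well (12.2% higher and 11.7% lower), and 1, Sox12, was lower at an unadjusted p-value below 0.05. Under a rule of an unadjusted p-value below 0.05 with a fold change above 2, the members lower than in fresh cells numbered 1, 2, 4 and 4 after 12 h, 24 h, 36 h and 48 h (12.1%, 14.2%, 15.6% and 15.9% of all transcripts), while the step to 24 h had 2 (1.89%) and the step to 36 h 1 (1.76%).

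In the tissue library every member scored above all libraries of 36 h and 48 h. Sox4 scored 5832 there, Sox11 3174, Sox12 348, Sox9 187 and Sox6 480. Relative to the 0 h mean, the log2 differences were -0.09, -0.39, -0.63, 0.27 and -0.08. Sox9 and Sox6 lay within the range of the 0 h libraries, and Sox4, Sox11 and Sox12 below it. With 1 library of tissue these differences have no replicate check.

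Ordered by mean score, every member but Sox9 was highest at 0 h, and Sox9 was highest at 12 h, where its libraries of 359 and 137 overlapped the 0 h range. In the order of Sox4, which ran 0 h, 12 h, tissue, 24 h, 48 h, 36 h, only tissue and 24 h were neighbours that did not overlap. For Sox12, with the same order, tissue did not overlap 24 h and 24 h did not overlap 48 h. In Sox11 (0 h, tissue, 24 h, 12 h, 48 h, 36 h) the tissue library lay apart from both its neighbours. In Sox6 (0 h, tissue, 36 h, 12 h, 48 h, 24 h) only tissue and 36 h were apart, and in Sox9 (12 h, tissue, 0 h, 24 h, 48 h, 36 h) only 48 h and 36 h.

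Likeness over the 14 mDMC libraries was taken as Pearson's r of the log2 scores, a description only, since the points share time points and normalisation. Among the members, Sox4 was most like Sox12 and Sox9 (r = 0.90 for both), and Sox9 and Sox6 were least alike (r = 0.31). With the time-point means removed, Sox12 and Sox9 still varied together (r = 0.87), while the value for Sox4 and Sox11 was 0.10. Among 11962 transcripts with a symbol, those most like Sox12 were Zfp706, a zinc finger gene (r = 0.989), Cacna1h, a calcium channel subunit (r = 0.986), and Rest, a repressor of neuronal genes (r = 0.983). Sox4 was most like Wnk3, a kinase, Mia2, of secretory transport, and Nptx1, a pentraxin (r = 0.941, 0.929 and 0.928). Sox11 was most like Nap1l1, a histone chaperone, Fnbp1l and Mab21l1 (r = 0.949, 0.945 and 0.937). For Sox9 these were Marcks, an actin-binding substrate of protein kinase C, Gse1 and Ubqln2 (r = 0.933, 0.931 and 0.925), and for Sox6 Plxnb1, a semaphorin receptor, Hmcn1, a matrix protein, and Adcy2, an adenylate cyclase (r = 0.965, 0.961 and 0.955).

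Of 14 other Sox genes listed, Sox2 and Sox7 had a row, and both fell. Sox2, a SOXB factor of epithelial and neural progenitors, scored 498, 96 and 31 (0 h) and between 1 and 16 in culture, with no overlap, with a log2 change of -4.45 after 48 h (SE 0.82, adjusted p = 0.00031 in limma). Its high 0 h library, number 1, was also that with the highest Krt14. Sox7, a SOXF factor of endothelium, scored 90, 103 and 175 at 0 h, 13 and 9 at 12 h, and 0 or 1 from 24 h on. It fell by 6.56 at 48 h (SE 0.60, adjusted p = 6.4e-07 in limma), a fitted value that depends on the pseudocount at such low scores.

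The HMG box is shared with factors outside the Sox family. Counts in the lists that follow stand beside 34% of all tested transcripts called lower at 48 h and 37.1% called higher. Of 21 such genes listed, 19 had a row, and at 48 h 16 were lower, 1 higher and 2 not called, with a median log2 change of -0.90. Those that fell most were Tcf7 and Lef1 (-2.96 and -2.78), nuclear partners of beta-catenin in Wnt signalling, and Hmgb3 (-2.11), a chromatin protein. Tox4 was the 1 gene that rose (0.27, adjusted p = 0.0151 in limma). At 12 h 9 of the 19 were lower and 1 higher, beside 28.3% and 29.9% of all transcripts.

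Genes that SOX9 is known to switch on in cartilage together with SOX5 and SOX6 did not move in 1 direction. Of 20 listed, 10 had a row, and at 48 h 8 were lower and 2 higher, with a median of -1.02. Col9a2, a chain of cartilage collagen, fell by 6.69 on the log2 scale, from scores of 1256, 1121 and 884 at 0 h to 13, 8 and 8 at 48 h. Fgfr3, a receptor of growth plate cartilage, fell by 2.09. Hapln1, a link protein of cartilage matrix, rose by 0.62. Acan, the large cartilage proteoglycan, rose by 7.13 (SE 0.31, adjusted p = 8.5e-10 in limma): it scored 3, 7 and 7 (0 h) and 11 in tissue, 1582 and 1027 (12 h), and 1305, 947 and 572 (48 h), with no overlap. Acan scored 1898, 1659 and 1362 at 24 h and 1396, 1389 and 1509 at 36 h. The Sox9 scores were 359 and 137 (12 h), 85, 56 and 116 (24 h), and 41, 48 and 23 (36 h). A link between the 2 genes was not tested.

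All 12 listed SOX9 cofactors had a row, and at 48 h 5 were lower, 2 higher and 5 not called, with a median of -0.12. The lower count is near the 34% of all transcripts, and the higher count is below the 37.1%. Maf, a transcription factor that binds with SOX9, fell by 1.67, Smad3, a mediator of TGF-beta signals, fell by 0.89 and the acetyltransferase Crebbp fell by 0.83. The 2 that rose were Arid5b (0.67) and the acetyltransferase Kat5 (0.41). Of 16 skeletogenic factors that act beside SOX9, 12 had a row, of which 9 were lower and 1 higher, with a median of -1.02. Pth1r, the receptor of parathyroid hormone-related protein, fell by 2.49 and Runx2, the master factor of bone, fell by 2.09. Scx, a tendon factor, rose by 2.56 (SE 0.56, adjusted p = 0.00122 in limma), with scores of 195, 163 and 120 (0 h), 13 and 20 (12 h), and 1143, 1224 and 571 (48 h). Its 48 h libraries lay above all fresh ones, and its 12 h libraries below them.

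Of 10 genes known to lie downstream of SOXC factors, all with a row, 7 were lower and 3 higher at 48 h, with a median of -0.55, beside 34% and 37.1% of all transcripts. Dcx, a microtubule protein of young neurons, fell by 2.46 and Stmn1, a regulator of microtubule growth, fell by 2.08. Tubb3, a neuronal tubulin, rose by 2.14 (SE 0.46, adjusted p = 0.0011 in limma), from 258, 139 and 77 at 0 h to 301, 794 and 1005 at 48 h. Tead2, a partner of YAP that SOXC factors are known to activate, fell by 1.56 (SE 0.14, adjusted p = 7.1e-07 in limma).

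**Figure D5:**
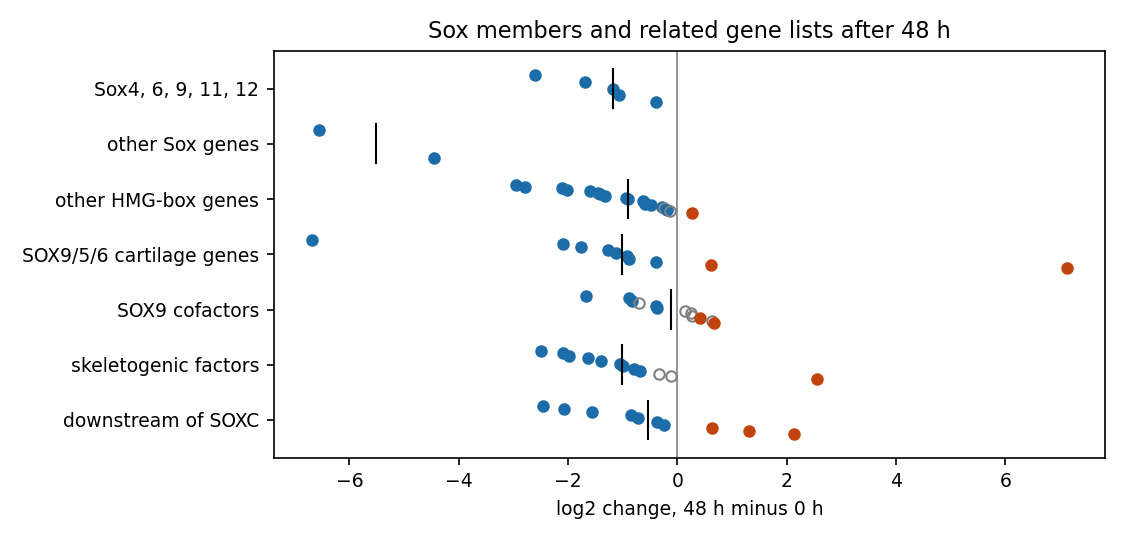
The log2 change from 0 h to 48 h (horizontal axis) is shown for each gene with a row in the Sox members and 6 related lists (rows). Blue points were called lower, red points higher and open circles not called by limma, and black bars are list medians. The members' median is -1.17, and Acan stands alone at 7.13.

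Markers of other cell types also moved between 0 h and 48 h, in part at other times than the Sox genes. Called lower at 12 h were 7 of 7 red cell, 10 of 12 endothelial and 2 of 10 epithelial genes, beside 2 of the 5 Sox members. Over all transcripts tested that share was 28.3%. The summed score of the 7 red cell genes with a row was 97896 to 150716 at 0 h, 135582 in tissue and 52 to 757 in culture, and 7 of 7 were lower at 48 h (Hbb-bt -11.37, Hba-a2 -11.11, Hbb-y -10.73). That of 12 endothelial genes was 11979 to 13999 at 0 h and 3202 to 5002 at 48 h, when 10 were lower and 2, Flt1 and Eng, higher. Those that fell most were Tie1, Cldn5 and Robo4 (-9.66, -9.28 and -8.49), and Cldn5 was listed at 0 in every library from 24 h on. Dental epithelium (10 of 12 genes with a row) summed to 1664 to 14956 at 0 h and 406 to 1345 at 48 h, with 6 lower, led by Sox2, Krt5 and Epcam (-4.45, -3.60 and -3.14). No epithelial gene was at 0 in all libraries of a time point.

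Glial markers (6 of 11 with a row) summed to 2365 to 2882 at 0 h and 663 to 818 at 48 h, with 3 lower and 1 higher. Ngfr fell by 6.50, S100b fell by 3.48 and Mbp rose by 2.39, while the defining glial factor Sox10 had no matched row. Of 10 neuronal genes 3 had a row, and Stmn2 and Tubb3 rose by 3.31 and 2.14 while Nefl fell by 2.87. The neuronal sums were 475 to 1138 at 0 h and 549 to 1911 at 48 h. Macrophage genes (7 of 12 with a row) summed to 1579 to 2558 at 0 h and 572 to 907 at 48 h, with 6 lower, among them Mrc1, C1qa and Csf1r (-3.25, -3.05 and -2.50). Of the 10 dental mesenchyme markers, 6 were lower at 48 h (Pax9 -2.37, Lhx6 -1.60, Twist1 -0.81), with sums of 66529 to 81946 at 0 h and 45558 to 54633 at 48 h. The part of these cell types in the Sox values was not tested.

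Promoter sequence from RefSeq (GRCm38.p6) was found for Sox4, Sox11, Sox12 and Sox6. It is printed for the SOXC genes with the smallest and the deepest fall, as 130 bases from 150 to 21 bases before the start site, 5′ to 3′ on the strand of the gene, with capitals on matches to the motifs searched.
Sox4: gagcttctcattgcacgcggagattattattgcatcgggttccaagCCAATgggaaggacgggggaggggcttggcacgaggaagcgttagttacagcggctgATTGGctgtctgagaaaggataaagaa
Sox12: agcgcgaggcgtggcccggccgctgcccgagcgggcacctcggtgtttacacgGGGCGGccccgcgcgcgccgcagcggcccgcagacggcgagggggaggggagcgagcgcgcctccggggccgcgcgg
The Sox4 window is chr13:28953720-28953849 and that of Sox12 chr2:152398067-152398196, both on the minus strand. Over the 250 bases before the start, the GC content was 50.8% for Sox4, 58% for Sox11, 74.4% for Sox12 and 45.2% for Sox6, beside a median of 52.4% over all promoters. Sox6 has 6 listed promoters, and only that nearest to the start of the measured transcript was used, also for the motifs. For Sox11 the start site used lay 144 bases from the start of the measured transcript.

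On either strand of these 250 bases, the CCAAT box (CCAAT) matched 4 times for Sox4, once each for Sox11 and Sox12 and 0 times for Sox6, and 33.8% of 32851 promoters held it. The GC box (GGGCGG) matched 2 times for Sox11 and 3 times for Sox12 (32.7% of promoters). A Sox or TCF core (ACAAAG, 16.5% of promoters) matched 1 time for Sox6. The TATA box (TATAAA, 12.4%), the AP-1 site (TGACTCA, 4.46%), the E box (CACGTG, 6.02%) and another Sox core (AACAAT, 9.42%) matched in none of the 4 windows. A match is a stretch of letters and not a shown binding site. The motifs searched share letters in part, and none contains another.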

How the data were processed

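RNA-seq libraries of mDMCs (14) and dental mesenchymal tissue (1) were prepared with the TruSeq kit. The authors trimmed adaptors, aligned the reads with bowtie to the mouse transcriptome (mm10, Ensembl) and estimated expression with RSEM (version 1.1.21 in the submitters' processing notes). They deposited 1 table of normalised expression scores, named as cpm. Its library totals are far above what that unit allows, so the values were treated as scores. The libraries share 1 distribution, with identical scores in all libraries for 71.9% of ranks, and no transcript has a maximum below 13, so low transcripts had been left out before deposition. Depth is unknown, and no counting interval can be given.

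Transcripts were matched to GENCODE annotation of GRCm38, and 116 were unmatched. Scores were analysed as log2(score + 1), with a pseudocount of 1, for the 12079 transcripts that reached 1 ppm of their library's total in 2 libraries or more. limma 3.58.1 under R 4.3.3 fitted the 14 mDMC libraries, giving each time point its own mean and moderating the variances along an intensity trend. Calls used a Benjamini-Hochberg adjusted p-value below 0.05 over all transcripts tested. Fold changes are on the log2(score + 1) scale and understate the change of low genes. The design had foreseen cpm values, and the same test was kept. The limma step was checked on simulated data. Python 3.11.15, numpy 2.4.6, pandas 2.3.3, scipy 1.17.1 and matplotlib 3.10.9 were used for the rest.

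Groups and replicate numbers came from the sample labels, which do not say that a number marks a shared batch. Deviations of same-numbered libraries from their time-point means had r of -0.25 to 0.32 over 26 pairs of libraries. All 3 pairs exceeded 0.1 between 24 h and 36 h (0.16, 0.14 and 0.13) and between 24 h and 48 h (0.30, 0.20 and 0.32). The numbers were therefore read as a sign of pairing in these comparisons and in no other. The main tests did not use them. The replicate block fitted an effect of each number over all 14 mDMC libraries, so it also joins the other time points. The members and gene lists were chosen with earlier results of these data known. The genes named are all members, every other Sox gene with a row, up to 3 called genes per list with the largest change from 0 h to 48 h, and the 3 transcripts most like each member. Beyond this rule, genes that make up a count of 5 or fewer (Hapln1, Tox4, Arid5b, Kat5, Flt1, Eng), Tead2 and Krt14 were chosen after their values were seen. Promoters came from RefSeq, and Sox9 had no match there. Alternatives covered the pseudocount, the filters, scaling, the samples fitted, the replicate block, the call rule and each library left out.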

Additional observations from a re-analysis of the deposited data

How the results depend on the processing

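Of 290 counts of members under the alternatives, 269 stayed within 1.5 times the reported count and 21 moved. The 269 include the many counts, such as those of higher members, that were 0 in the main fit and stayed at 0. Of 685 changes of single members, 653 kept their direction and their side of the threshold. By unadjusted p-value (below 0.05) plus a fold change over 2, the members lower than at 0 h numbered 1 at 12 h and 2 at 24 h, those lower from 12 h to 24 h 2 and those from 24 h to 36 h 1. A fit restricted to the 2 time points called 0 members lower from 12 h to 24 h. When each library was left out in turn, the members lower numbered 0 to 2 from 12 h to 24 h, 0 to 1 from 24 h to 36 h and 0 to 1 from 24 h to 48 h, and those higher from 24 h to 36 h 0 to 1. Leaving out the 0 h library 3 and the 12 h library 1 together, chosen after seeing the data, called 0 members lower from 12 h to 24 h, and leaving out the 24 h library 1 and the 48 h library 1, also chosen later, called 1 member higher from 24 h to 36 h (Sox6, 0.98, adjusted p = 0.0225 in limma).

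With the replicate block, 1 member was higher from 24 h to 36 h (Sox6, 0.77, adjusted p = 0.0329 in limma), and Sox4 at 12 h changed by 0.00 instead of -0.00. The block changed no other call of a member. Over all time points, 10 of 14 libraries correlated best with their own number, a hint from the data and not from the design, and outside 24 h against 36 h or 48 h the numbers were not taken to pair the libraries. Signs turned only for Sox4 at 12 h (-0.09 to 0.08 over the libraries left out), Sox9 at 12 h (-0.18 to 1.21) and Sox4 from 24 h to 48 h (-0.13 to 0.03), none of them a call. The cause of these changes was not tested. The tissue and 12 h groups have 1 and 2 libraries, and scores forced to one distribution show no change in total RNA.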
